A study of Danio rerio with 18 samples.

Results

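The comparison described here set all susceptible zebrafish larvae against all resilient larvae, giving equal weight to larvae left undisturbed and larvae exposed to a stress. It used all 18 of the 18 libraries, each made from the total RNA of 1 whole larva of the AB strain. The groups were 4 resilient basal, 4 susceptible basal, 5 resilient stressed and 5 susceptible stressed larvae, so 9 larvae of each archetype. Larvae were sorted into archetypes at 6 dpf (days post fertilisation) and collected at 7 dpf, either in the basal state or 30 min after a stress of 5 min. For each gene the archetype effect is a log2 fold change, the mean of the susceptible groups minus the mean of the resilient groups, and it is positive where susceptible larvae were higher. Interest lay in genes that differed in the same direction in both states, which a difference arising in only 1 state can mimic in the average. Neither the clutches and days the larvae came from nor the way they were scored is stated in the labels.

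Whole-larva RNA mixes every tissue, so fewer cells of a type and less RNA per cell cannot be told apart. In larval zebrafish, embryonic erythrocytes carry most of the globin and heme synthesis transcripts, and their development is driven by transcription factors such as Klf1. Glycogen, a store of glucose in muscle and liver, is built on a protein primer, glycogenin. Stress hormones act through the glucocorticoid receptor, whose targets include Fkbp5, a chaperone that restrains the same receptor, and immediate early genes respond to activity within minutes.

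Total reads per library ranged from 8452595 to 23801175, and 22038 genes were tested. Markers of the liver, nervous system, epidermis, erythrocytes, lens, photoreceptors and neutrophils were detected in every larva, for example fabp10a at 455 to 884 CPM and elavl3 at 376 to 499 CPM. CPM are counts scaled to library size with TMM normalisation factors. All 32 pairs of larvae within a group differed by more than counting noise.

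Few genes differed between the archetypes when basal and stressed larvae were averaged. A call in this average does not require a difference in each state. In the averaged contrast edgeR's quasi-likelihood test called 5 genes (0.0227% of those tested) at an adjusted p below 0.05. Of these, tmem88a and gpr183a were higher in susceptible larvae (0.00908% of genes called higher), and 3 were lower (0.0136% called lower), among them gyg1b and the long non-coding RNA si:dkey-85k7.7. All 5 kept 1 sign in both states. At an unadjusted p below 0.05 there were 2808 genes (12.7%), of which 1513 were higher and 1295 lower in susceptible larvae. Of these 2808 genes, 1742 had an unadjusted p below 0.05 in stressed larvae alone, 452 in basal larvae alone, 124 in both with 1 sign, 5 in both with opposite signs and 485 in neither.

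Asking for a difference in each state was stricter. No gene passed when the larger of its 2 state p-values was adjusted over all genes (0 with edgeR, with DESeq2 and with limma voom). At unadjusted p below 0.05 in each state, 124 genes (0.563%) differed in 1 direction, 71 higher (0.322%) and 53 lower (0.24%) in susceptible larvae. A further 169 genes (0.767%) passed in both states with opposite signs. The 124 genes were 9.46% of the 1311 genes with an unadjusted p below 0.05 in basal larvae (5.95%) and 2.83% of the 4375 in stressed larvae (19.9%). Within a single state, edgeR called 782 genes (3.55%) in stressed larvae and 0 in basal larvae. Over all genes the sign was shared by 11100 (50.4%), and Pearson's r between the basal and stressed log2 fold changes was -0.06 across 22038 genes, which are not independent replicates. The basal and stressed effects use different larvae. Without resilient basal larva 1 the same-direction count was 172 and the opposite 117, so the order of these counts turned. Without resilient basal larvae 1 and 3 they were 227 and 102, without resilient stressed larvae 2 and 3 they were 70 and 123, and without susceptible basal larvae 1 and 2 they were 66 and 297. The opposite count was also above 250 without resilient basal larva 2, at 278, and without susceptible basal larva 2, at 272.

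**Figure D1:**
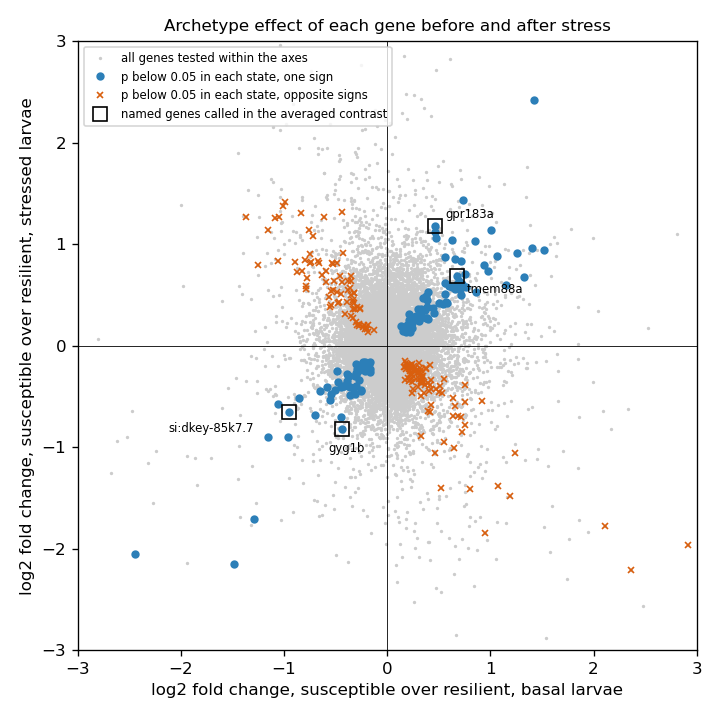
Each point is 1 gene, with its log2 fold change (susceptible over resilient) in basal larvae on the x axis and in stressed larvae on the y axis. Circles mark genes with an unadjusted p below 0.05 in each state and 1 sign (124 in all), and crosses those with opposite signs (169 in all). Open squares mark the 4 called genes described in the text. Of all genes tested, 45 lie outside the plotted range of 3 log2 units either way and are not drawn. abcc2, 1 of the 124, is among them.

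In the authors' deposited table, 19 genes differed between the archetypes in basal larvae at an adjusted p below 0.05 and 1457 in stressed larvae. Of the 19, 7 were higher and 12 lower in susceptible larvae. The alpha globins hbae3 and hbae1 were among the 7, with log2 fold changes of 1.14 and 1.32. In stressed larvae they stood at 0.60 and 0.67 and did not pass that threshold. The authors' deposited table had 4 genes past that threshold in both states. The authors' deposited table gave si:dkey-85k7.7 and LOC100334599 the same sign in both, and tln2a and il6st opposite signs.

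The count of 5 called genes depended on single larvae. It was 0 without susceptible basal larva 3, 15 without resilient stressed larva 5 and 8 without resilient basal larva 1. It was 3 without resilient basal larva 3 or resilient stressed larva 4, and 2 without resilient stressed larva 1 or susceptible stressed larva 4. It was 1 without any 1 of resilient basal larvae 2 and 4, resilient stressed larvae 2 and 3, susceptible basal larvae 2 and 4, and susceptible stressed larvae 1, 3 and 5. The remaining omissions, susceptible basal larva 1 and susceptible stressed larva 2, gave 6 and 4.

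The non-coding transcript si:dkey-85k7.7, annotated as a lncRNA by RefSeq, had the smallest p. Resilient basal larvae measured 72.5, 60.3, 77.7 and 109 CPM, and susceptible basal larvae 40.7, 44.4, 34.8 and 44.1 CPM. Resilient stressed larvae measured 67.5, 47.6, 52.1, 44.1 and 44.1 CPM, and susceptible stressed larvae 33.9, 32.5, 31.6, 28.5 and 36.0 CPM. No susceptible larva reached the lowest resilient larva of its own state. The averaged log2 fold change was -0.80 (SE 0.11, n = 9 larvae per archetype), with an adjusted p of 0.0125 from edgeR, and the effects within each state were -0.96 in basal and -0.65 in stressed larvae. It stayed called in 17 of the 18 fits that left out 1 larva.

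gyg1b encodes a glycogenin. Basal resilient larvae had 75.9, 111, 96.6 and 105 CPM of it, and basal susceptible larvae 81.4, 60.9, 65.0 and 79.4 CPM. Stressed resilient larvae had 129, 156, 169, 113 and 101 CPM, and stressed susceptible larvae 74.7, 83.8, 71.7, 72.8 and 75.3 CPM. The archetypes were apart in stressed larvae, while in basal larvae 1 resilient larva lay within the susceptible range. The averaged log2 fold change was -0.63 (SE 0.10, n = 9 per archetype; adjusted p 0.0335, edgeR), made of -0.44 in basal and -0.82 in stressed larvae, and it stayed called in 5 of 18 fits that left out 1 larva. Of 20 glycogen synthesis and breakdown genes tested, 4 were lower and 1 higher at an unadjusted p below 0.05, beside 5.88% and 6.87% of all genes. The 4 include gyg1b itself. In both states 5 of the 20 were lower and 3 higher, beside 25.1% and 25.2% of all genes. The medians of the 20 were 0.009 in basal and -0.104 in stressed larvae. The other glycogenin, gyg1a, was at -0.30 in basal and -0.27 in stressed larvae and was not called, and glycogen synthase gys1 was at 0.11 in basal and -0.43 in stressed larvae. Another glycogen synthase, gys2, was at 0.31 in basal and 0.04 in stressed larvae. These 3 were chosen after their values were seen.

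tmem88a encodes a small membrane protein that binds Dishevelled and dampens Wnt signalling, known in zebrafish from heart muscle specification. Basal resilient larvae expressed it at 4.48, 2.98, 3.73 and 4.0 CPM, and basal susceptible larvae at 6.82, 6.2, 5.57 and 5.49 CPM. In stressed larvae the resilient values were 4.23, 3.13, 3.12, 2.82 and 3.65 CPM, and the susceptible values 4.94, 6.11, 5.84, 4.19 and 5.95 CPM. The basal groups did not overlap, and the stressed groups overlapped by 1 larva on each side. The effect was 0.68 in basal, 0.68 in stressed and 0.68 in the averaged contrast (SE 0.11, n = 9 per archetype; adjusted p 0.0335, edgeR), and it stayed called in 4 of 18 fits that left out 1 larva. Its paralog tmem88b, chosen after its values were seen, was at 0.58 in basal and 0.42 in stressed larvae and was not called.

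gpr183a is the zebrafish counterpart of a receptor that in mammals guides immune cells along oxysterol gradients. It was measured at 5.67, 3.23, 4.67 and 3.04 CPM in resilient basal larvae and at 6.49, 6.03, 5.57 and 4.68 CPM in susceptible basal larvae, which overlapped. After stress the resilient larvae had 2.35, 2.22, 1.79, 2.01 and 2.95 CPM and the susceptible larvae 4.40, 4.38, 5.29, 5.66 and 5.77 CPM, which did not. The effect was 0.46 in basal and 1.18 in stressed larvae, averaging 0.82 (SE 0.13, n = 9 per archetype; adjusted p 0.0335, edgeR), and it stayed called in 3 of 18 fits that left out 1 larva.

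**Figure D2:**
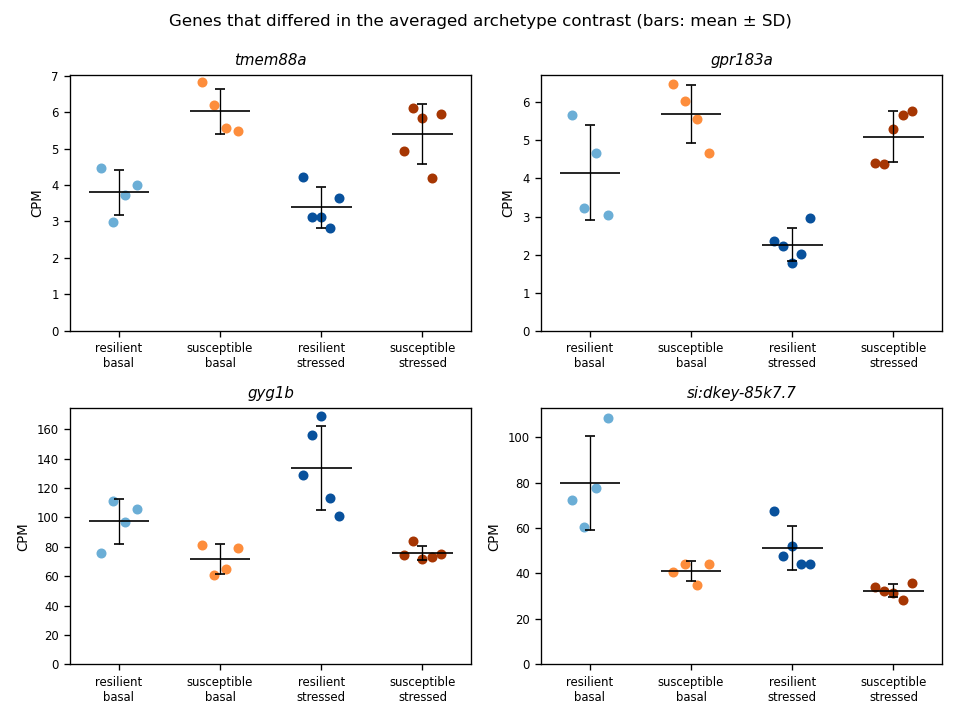
CPM of 4 called genes in each larva (points), with the group mean and SD (bars), in the 4 groups. si:dkey-85k7.7 separates the archetypes in both states, whereas gpr183a and gyg1b separate them in stressed larvae and tmem88a in basal larvae.

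Larvae of the archetypes did not overlap in either state, with 1 direction, for 12 genes (0.0545%), while 23 genes (0.104%) separated them in opposite directions. In single states, 3.29% of genes separated the basal and 4.98% the stressed larvae. Of the 12, 3 were higher in susceptible larvae (LOC100334443, LOC101883913 and rit1) and 9 (0.0408%) lower (among them si:dkey-85k7.7, ankrd46a, taok1b, klf6b, rad23aa, cpne4b, xkr9 and camk2n2). Those named are listed because of this separation, and of them si:dkey-85k7.7 was called. ankrd46a was the nearest miss. Its resilient larvae lay between 28.6 and 38 CPM in the basal state and between 29.7 and 40.1 CPM after stress, and its susceptible larvae between 23.9 and 26.4 CPM and between 25.5 and 28.1 CPM. Its averaged log2 fold change was -0.37 (SE 0.06, adjusted p 0.0544, edgeR). taok1b, a kinase upstream of stress-activated MAP kinases, had susceptible larvae at 94.0 to 107 CPM and resilient larvae at 115 to 134 CPM in the basal state, and at 90.7 to 119 CPM and 121 to 180 CPM after stress, with a log2 fold change of -0.39 (SE 0.07, adjusted p 0.0839, edgeR). klf6b, a zinc finger transcription factor, was the largest in size at -1.50 (SE 0.30, adjusted p 0.117, edgeR), at a low mean level of 1.02 CPM over all larvae.

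Other genes with small p-values in both states were spread over several functions, and none was called. lgals3bpb, a secreted galectin-binding protein, was at 0.70 in basal and 0.64 in stressed larvae. ugt1a4, a glucuronosyltransferase of detoxification, was at 0.57 and 0.50. ramp2, a receptor accessory protein for adrenomedullin signalling in vessels, was at 0.28 and 0.29, and naprt, an enzyme of NAD synthesis, at 0.23 and 0.22. Lower in susceptible larvae were crebrf, a regulator of the unfolded protein response, at -0.51 and -0.44, the choline transporter-like gene slc44a5a at -0.54 and -0.48, and the keratin krt92 at -0.30 and -0.40.

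Erythrocyte transcripts formed the gene list with the highest median. Of 23 erythrocyte and heme genes tested, 0 were called, 20 (87.0%) were higher in susceptible larvae in both states beside 25.2% of all genes, and none was lower in both. An unadjusted p below 0.05 was reached by 18, all higher, beside 6.87% of all genes. In each state 8 reached it with 1 sign, all higher, beside 0.322% of all genes. The list's median log2 fold change was 0.61 averaged, 0.78 in basal and 0.44 in stressed larvae, while the medians over all genes were -0.000, 0.003 and -0.003. As a score (the mean of centred log2 CPM), resilient basal larvae were at -0.12, -0.06, -0.24 and -0.38 and susceptible basal larvae at 0.86, 0.94, 0.17 and 0.00. Stressed resilient larvae were at -0.32, -0.68, -0.58, -0.27 and 0.04, and stressed susceptible larvae at 0.12, -0.28, 0.17, 0.41 and 0.20. The basal groups did not overlap, and after stress 1 susceptible larva lay within the resilient range. Susceptible basal larvae 1 and 2 stood well above the rest: without them the medians were 0.31 averaged and 0.18 in basal larvae, with 15 genes higher in both states and 11 at an unadjusted p below 0.05. With 1 surrogate variable as a covariate the medians were 0.26 averaged and -0.01 in stressed larvae.

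The alpha globin hbae3 measured 385, 478, 383 and 343 CPM in resilient basal larvae and 1140, 1237, 644 and 497 CPM in susceptible basal larvae. After stress the resilient larvae measured 451, 312, 348, 339 and 623 CPM and the susceptible larvae 718, 444, 677, 668 and 631 CPM. Basal groups were apart and stressed groups overlapped. Its averaged log2 fold change was 0.87 (SE 0.18, adjusted p 0.131, edgeR), so it was not called. The beta globin hbbe1.3 was at 1.26 in basal and 0.91 in stressed larvae. Globin genes have near-identical copies, and the labels do not say how reads were divided among them.

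The non-globin erythrocyte genes named here were higher in susceptible larvae in both states, as were 20 of the 23 list genes tested. klf1, the erythroid master regulator, was at 0.98 in basal and 0.73 in stressed larvae. slc4a1a, the band 3 anion exchanger of the red cell membrane, was at 1.07 and 0.88, and epb41b, a membrane skeleton protein, at 0.86 and 0.53. alad, an enzyme of heme synthesis, was at 0.27 and 0.37, and lmo2, a cofactor of blood and vessel transcription factors, was at 0.31 and 0.31. One globin departed from the others: hbbe1.1 was at 1.12 in basal and -0.38 in stressed larvae, with resilient stressed larvae 2 and 3 at 117 and 98.3 CPM and the other resilient stressed larvae at 32.0 to 46.1 CPM. The genes klf1, epb41b, slc4a1a, alad, lmo2, hbbe1.3 and hbbe1.1 were chosen after their values were seen.

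**Figure D3:**
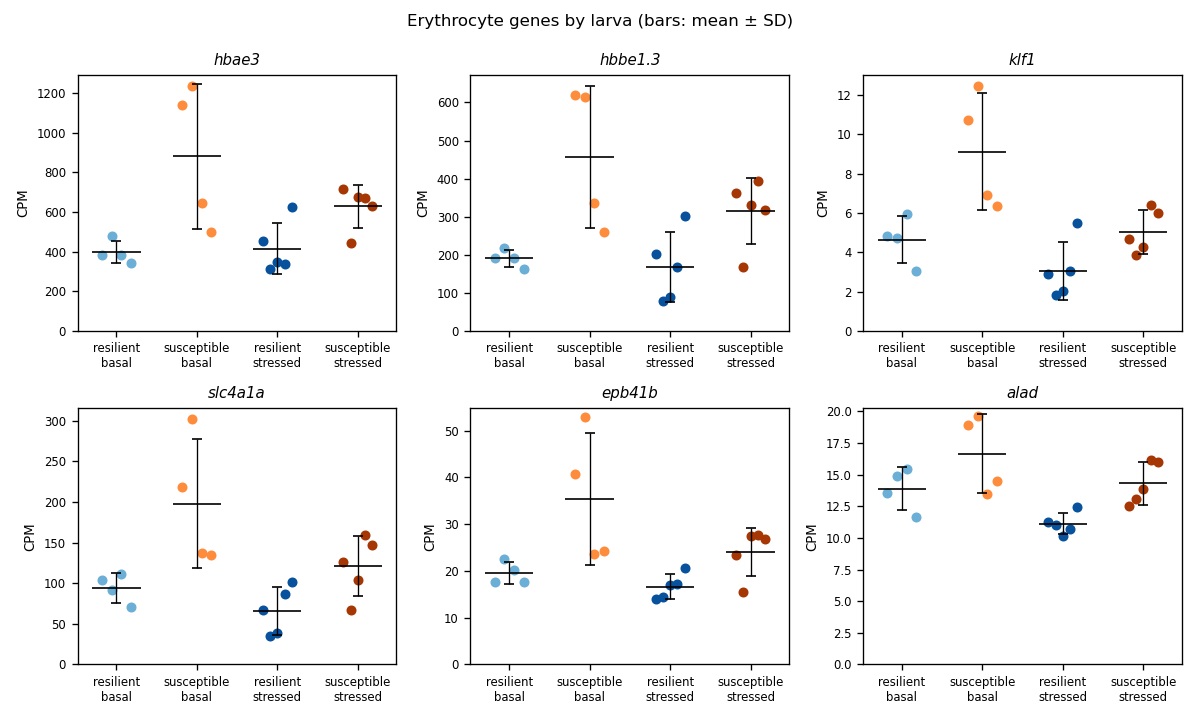
CPM of 6 erythrocyte genes in each larva (points), with the group mean and SD (bars). Basal susceptible larvae 1 and 2 are the high pair in the susceptible basal column of every panel.

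Macrophage and microglia genes leaned the same way on average but mostly through stressed larvae. Of 25 macrophage and microglia genes, 16 (64.0%) were higher in both states and 1 lower, beside 25.2% and 25.1% of all genes. An unadjusted p below 0.05 was reached by 11, all higher, beside 6.87% of all genes, and 0 were called. Their medians were 0.17 in basal and 0.80 in stressed larvae, and without susceptible basal larvae 1 and 2 the basal median was -0.22 with 3 genes higher in both states. Outside the macrophage list, mrc1b, cfp and sele were named for their small p-values in the averaged contrast. The same rule, which did not look at cell type, also picked myoz3a and klhl6. Neither of these was called, and they are not described further. mrc1b, a mannose receptor, was at 0.46 in basal and 1.11 in stressed larvae. cfp, the complement activator properdin and a member of the complement list, was at 0.74 and 1.43, and the selectin gene sele at 0.56 and 0.87. Each had an adjusted p of 0.108 to 0.123 in the averaged contrast (edgeR) and was not called. Among 37 complement genes 12 (32.4%) were higher in both states, near the 25.2% of all genes, and 1 was lower, beside 25.1%. An unadjusted p below 0.05 in the averaged contrast was reached by 14, all higher, beside 6.87% of all genes, and 0 were called. The complement medians were -0.04 in basal and 0.74 in stressed larvae. Of 30 endothelium and blood vessel genes 18 (60.0%) were higher in both states and 1 lower, beside 25.2% and 25.1% of all genes. At an unadjusted p below 0.05, 10 were higher and 1 lower, beside 6.87% and 5.88% of all genes, and 0 were called. The medians were 0.13 averaged, 0.15 in basal and 0.08 in stressed larvae. Scores overlapped after stress, at -0.252 to -0.040 in resilient and -0.241 to 0.135 in susceptible larvae. In the basal state they overlapped narrowly, at -0.006 to 0.053 and 0.048 to 0.315.

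Proliferation genes had the same sign but little basal difference. Of 61 tested, 43 (70.5%) were higher in susceptible larvae in both states, beside 25.2% of all genes, and none lower, with medians of 0.09 in basal and 0.55 in stressed larvae and 0 genes called. Without susceptible basal larvae 1 and 2 the basal median was -0.13 with 13 genes higher in both states, without resilient stressed larvae 2 and 3 the averaged median went from 0.34 to 0.17, and with 1 surrogate variable it was -0.05.

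**Figure D4:**
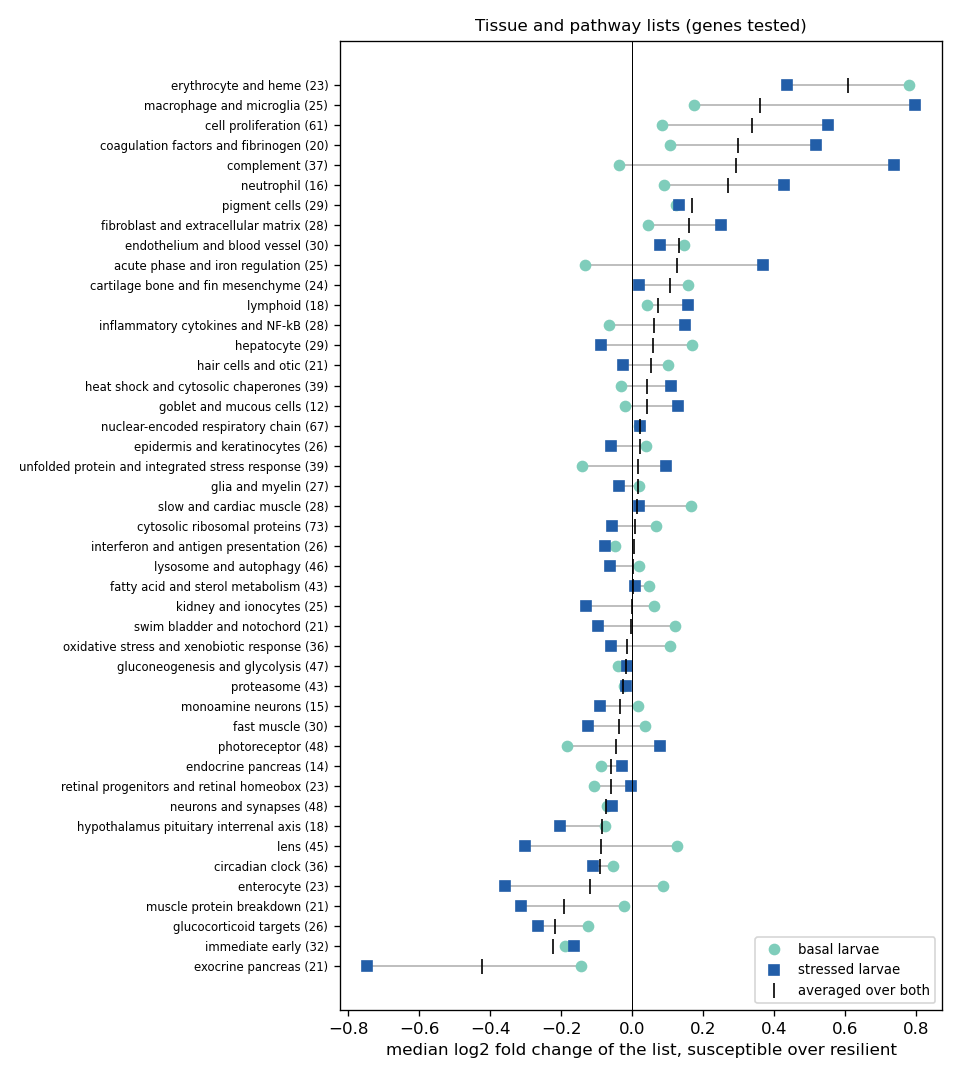
Median log2 fold change (susceptible over resilient, x axis) of each tissue and pathway list in basal larvae (circles), stressed larvae (squares) and averaged (ticks), with the number of genes tested in parentheses. Erythrocyte genes lie at 0.78 and 0.44 and immediate early genes at -0.19 and -0.16, while complement genes lie at -0.04 and 0.74.

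Immediate early genes leaned lower in susceptible larvae in both states, with no single gene called. Of 32 tested, 19 (59.4%) were below 0 in both states beside 25.1% of all genes, 2 were above 0 in both, and 9 reached an unadjusted p below 0.05, all lower, beside 5.88% of all genes. The median was -0.19 in basal and -0.16 in stressed larvae, and without susceptible basal larvae 1 and 2 the basal median was -0.04. dusp1, a phosphatase that switches off MAP kinases, held 141, 143, 174 and 169 CPM in resilient basal larvae and 109, 84.6, 74.9 and 131 CPM in susceptible basal larvae, which did not overlap. After stress it held 198, 224, 191, 189 and 180 CPM in resilient larvae and 190, 126, 141, 92.1 and 171 CPM in susceptible larvae, where 1 susceptible larva lay within the resilient range. Its averaged log2 fold change was -0.55 (SE 0.13, adjusted p 0.134, edgeR). btg2, an antiproliferative gene, was at -0.89 in basal and -0.52 in stressed larvae, and nr4a1, an orphan nuclear receptor, at -0.72 and -1.06. Both were chosen after their values were seen.

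Of 26 glucocorticoid target genes tested, dusp1 among them, 15 were lower and 3 higher in both states, beside 25.1% and 25.2% of all genes. At an unadjusted p below 0.05, 7 were lower and 2 higher, beside 5.88% and 6.87% of all genes, and 0 were called. The medians were -0.12 in basal and -0.26 in stressed larvae. cebpd, a transcription factor of the acute phase and a glucocorticoid target, was at -0.47 in basal and -0.36 in stressed larvae and was chosen after its values were seen. fkbp5 varied widely between larvae, at 143 to 385 CPM in resilient and 130 to 244 CPM in susceptible basal larvae, and at 24.0 to 171 CPM and 8.59 to 72.6 CPM after stress, and its averaged log2 fold change was -1.10 (SE 0.41, adjusted p 0.296, edgeR).

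**Figure D5:**
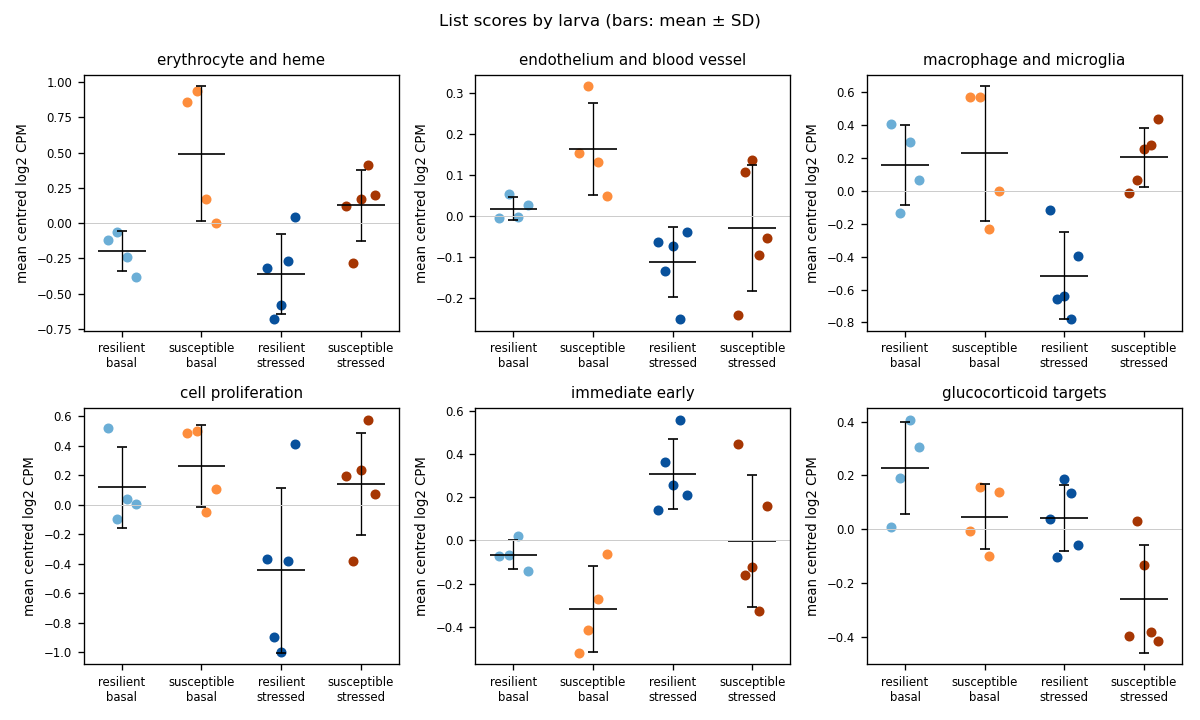
Score of 6 gene lists in each larva (points; mean of centred log2 CPM on the y axis), with the group mean and SD (bars). The erythrocyte score separates the basal archetypes, the immediate early score overlaps in each state, and the macrophage score is lowest in resilient stressed larvae.

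Several further lists had negative medians. Among 48 genes of neurons and synapses 27 were lower and 2 higher in both states, beside 25.1% and 25.2% of all genes. An unadjusted p below 0.05 was reached by 5, all lower, beside 5.88% of all genes. Their medians were -0.07 in basal and -0.06 in stressed larvae. Of 36 circadian clock genes 20 were lower and 2 higher in both states, beside 25.1% and 25.2% of all genes. An unadjusted p below 0.05 was reached by 10, all lower, beside 5.88% of all genes. Their medians were -0.05 in basal and -0.11 in stressed larvae. With 1 surrogate variable the stressed medians of these lists were 0.04 and 0.03. Of 21 muscle protein breakdown genes 12 were lower at an unadjusted p below 0.05, beside 5.88% of all genes. In both states 10 of the 21 were lower and 1 higher, and the list's medians were -0.02 in basal and -0.31 in stressed larvae. For 21 exocrine pancreas genes 17 were lower in both states, beside 25.1% of all genes, with a median of -0.42. However, susceptible basal larva 2 had a score of -2.54 against 0.04 to 0.36 for the other susceptible basal larvae. Without that larva 3 genes were lower in both states and the basal median was 0.21.

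abcc2, an organic anion transporter of liver and kidney, differed in an uneven way and was chosen after its values were seen. Its level was 32.8 CPM in resilient basal larva 3, 38.8 and 37.0 CPM in resilient stressed larvae 3 and 5, and between 0 and 2.35 CPM in the other 6 resilient larvae. All 9 susceptible larvae lay between 0 and 0.39 CPM. The averaged log2 fold change was -6.03 (SE 1.35, adjusted p 0.134, edgeR), and no fit without these 3 larvae together was run. With the 3 set aside, the other resilient stressed larvae, at 1.32 to 1.80 CPM, still lay above the susceptible stressed larvae. The latter reached 0.26 CPM, while the basal groups overlapped.

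The archetype effect also changed between states for a set of genes whose average conceals it. The test of the difference called 31 genes (0.141%), 15 more positive (0.0681%) and 16 more negative (0.0726%) after stress. il6st, the shared receptor subunit of interleukin 6 type cytokines, was at 50.9, 50.3, 48.1 and 55.5 CPM in resilient basal and at 39.5, 36.2, 42.9 and 43.8 CPM in susceptible basal larvae. In stressed larvae it was at 36.0, 35.0, 30.4, 30.4 and 30.1 CPM in resilient and at 40.2, 44.7, 41.3, 41.6 and 40.3 CPM in susceptible larvae. The groups did not overlap in either state and were ordered in opposite directions, so the average was 0.01 while the effect moved from -0.34 to 0.36 (adjusted p of the difference 0.0127, edgeR). socs3b, a feedback inhibitor of cytokine signalling, moved from -0.38 to 0.63 (adjusted p 0.0217), c7a, a complement component, from -0.44 to 1.32 (adjusted p 0.0127), and pfkfb1, an enzyme that sets the level of a glycolysis activator, from 0.33 to -0.89 (adjusted p 0.00666, edgeR). The count of 31 was 132 without resilient basal larva 2, 119 without susceptible basal larva 2, 76 without resilient stressed larva 5, 72 without resilient stressed larva 1 and 49 without susceptible stressed larva 2. It was 5 without susceptible basal larva 3, 8 without resilient basal larva 4, 9 without resilient basal larva 1, susceptible basal larva 1 or susceptible stressed larva 4, and 10 without susceptible stressed larva 3. It was 11, 12 and 14 without resilient stressed larvae 2, 3 and 4 in turn, and 16 without susceptible stressed larva 5.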

How the data were processed

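Per the file headers, the values are unnormalised read counts for each gene symbol that the authors deposited, with log2 fold changes and adjusted p-values of their own comparisons, which the authors fitted; cutadapt, STAR, DESeq2 and danRer11 are named in the submitters' processing notes, and the gene counter, annotation, strand setting and versions are stated in neither labels nor headers. Rows whose names are dates (15 of 25281, 0.0613 to 0.0698% of reads) were left out. Counts were normalised by TMM, filtered with filterByExpr and fitted as 4 group means in edgeR 4.0.16 (R 4.3.3) with its robust quasi-likelihood F test, and p-values were adjusted by Benjamini-Hochberg over 22038 genes and called below 0.05. The archetype contrast was tested averaged, within each state, and as the difference between states. For a difference in both states the larger p was used where signs agreed. Log2 CPM for scores used a prior count of 2. Nothing says that larvae came from separate clutches, so p-values measure the spread between these larvae. Larvae are numbered as in the titles, and the main fit did not pair larvae by these numbers.

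The genes, lists and contrast were chosen with earlier results of these data known. Of 1692 list entries, 1475 matched a gene and 1412 were tested. Matches were by symbol for 1399, by synonym for 47 and by a single numbered copy of the symbol for 29. Of 46 lists, 1 had no tested member. Genes were named only with an assigned symbol and from 1 CPM upward on average, and were the called genes, the genes with the smallest p not called, those with the smallest larger p over both states, the member of each list with the smallest p and a fixed panel; exceptions are stated. Tested on simulated data of 21838 genes, the averaged contrast recovered 54.5%, 74.6% and 92.4% of genes changed by 0.5, 1 and 2 log2 units, and the test of both states 15.2%, 43.3% and 83.3%. Of the unchanged genes the averaged contrast called 8 and the test of both states 0. The simulation drew each gene independently and held no stress effect, so variation shared by genes within a larva was absent from it. Alternatives were DESeq2 1.42.0, limma voom 3.58.1, RLE and upper-quartile factors, other filters, a replicate block, 1 surrogate variable (sva 3.50.0), an additive fit and omitted larvae. No genome of the files' build was used, so no coordinates are given. Some items that entered the fits and counts are not reported here by name.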

Additional observations from a re-analysis of the deposited data

Results flagged for a closer look

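Dixon's test at its 95% critical value was applied to 228 groups of larvae, for the genes and lists described above, and it picked out 10. Chance alone picks about 1 group in 20. The larvae concerned were spread over the groups, with 2 picked in each basal group and 3 in each stressed group.

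Among the genes whose larvae did not overlap, LOC100334443 was high in resilient basal larva 4 at 25.5 CPM and low in resilient stressed larva 3 at 22.6 CPM, and camk2n2 was low in susceptible basal larva 3 at 52.2 CPM. slc44a5a was low in susceptible stressed larva 5 at 2.73 CPM, and nr4a1 was high in resilient stressed larva 4 at 9.77 CPM. abcc2 was high in resilient basal larva 3 at 32.8 CPM, against 0 to 2.35 CPM in the others of its group.

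The exocrine pancreas score was low in 1 larva of 3 groups: resilient stressed larva 4 at 0.118, susceptible basal larva 2 at -2.54 and susceptible stressed larva 4 at -0.768. The muscle protein breakdown score was high in susceptible stressed larva 2 at -0.054, against -0.192 to -0.158 in the others.

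The archetype effect differed between basal and stressed larvae for 4 of the genes described, by edgeR's test of the difference. The stressed effect minus the basal effect was 0.699 for il6st, 1.01 for socs3b, 1.76 for c7a and -1.22 for pfkfb1 on the log2 scale.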

How the results depend on the processing

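Among the genes whose archetype effect is described above, the averaged log2 fold changes of il6st and tln2a took either sign under the alternatives run. Both were close to 0 (from -0.01 to 0.07 for il6st and from -0.02 to 0.07 for tln2a), and the others described kept their sign. Some genes of the fixed panel that are not described above also took either sign. The averaged contrast called 5 genes, and 6, 5, 5 and 5 with RLE factors, upper-quartile factors, no filter and a stricter filter. It called 9 with limma voom, 2 with the additive fit and 0 with 1 surrogate variable. DESeq2 called 169, including si:dkey-85k7.7 and gyg1b, and gave tmem88a and gpr183a no adjusted p. Without resilient basal larvae 1 and 3 the count was 8, without resilient stressed larvae 2 and 3 it was 0, and without susceptible basal larvae 1 and 2 it was 1. Leaving out 1 larva at a time gave 0 to 15. Several genes described above as not called were called under 1 of 13 alternatives other than leaving out 1 larva. These include hbae3, hbbe1.3, klf1, slc4a1a, epb41b, lmo2, dusp1, cfp, lgals3bpb, crebrf and abcc2. Under the same 13, alad and fkbp5 were called in 0, and ankrd46a in 4. The test for a difference of archetype effect between states called 31 genes, with 76 by voom, 402 by DESeq2 and 9 with 1 surrogate variable, and 6 without resilient basal larvae 1 and 3 or without resilient stressed larvae 2 and 3. Leaving out 1 larva gave 5 to 132. No alternative called a gene in both states, leaving out any 1 larva included. The 12 genes without overlap stayed 12 with RLE and with upper-quartile factors. The causes were not tested.

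The deviations of same-numbered larvae had correlations of -0.243 to 0.136 over 9 pairs by title number, with a median of -0.087. Over 7 pairs by the bracketed number the correlations were -0.124 to 0.195, with a median of 0.067. So few pairs cannot settle whether the numbers pair larvae. With a replicate block by title number the averaged contrast called 0 genes and the difference 14, and by bracketed number 2 and 8. At these depths, and with 4 or 5 larvae per group, the simulated test of both states recovered 15.2% of changes of 0.5 log2 units, the smallest size simulated. List values were recomputed under the same alternatives after seeing the data.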
